A study of Mus musculus with 12 samples.

Results

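Choline oxidation and the methionine cycle are represented here by 10 genes, Chdh, Aldh7a1, Bhmt, Bhmt2, Dmgdh, Sardh, Gnmt, Mat1a, Ahcy and Cbs, out of 21936 mouse genes in the count table. They were chosen by the enzymes they encode, though with earlier results of these data known. All 10 were found in the table, and all 10 passed edgeR's filter on low counts in every comparison. Liver RNA came from male C57BL/6 mice that were 6 weeks old on arrival, and all mice used here had received carbon tetrachloride (CCl4), a hepatotoxin that causes fibrosis, at 1 mL/kg into the peritoneum 2 times per week for 8 weeks. Mice of the liver fibrosis group (LFG) were killed after that course. The other mice were kept 4 weeks longer and injected 2 times per week in a tail vein, with 200 µL of phosphate-buffered saline in the regression group (REG) and with 250 µg of exosome protein in the same volume in the hADMSCs-Exo group. hADMSCs-Exo are vesicles shed in culture by human adipose mesenchymal stem cells. LFG therefore differs from the other groups in time after the last CCl4 dose as well as in treatment, and mice without CCl4 were not analysed here. Each group had 3 libraries, and 3 samples of mice given the stem cells themselves (hADMSCs) were not analysed. The sources used here do not say whether the libraries came from 3 separate mice, so p-values measure the spread between libraries.

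In the liver, choline is oxidized in mitochondria to betaine, whose methyl groups are used to turn homocysteine back into methionine. Methionine is activated to S-adenosylmethionine, the methyl donor of most methylation reactions, and the product left after methyl transfer is split to homocysteine, which either re-enters the cycle or is drawn off towards cysteine. The hepatocyte is known for running this pathway at a high level, and several of its enzymes are hardly made elsewhere.

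The genes lie on 5 chromosomes of GRCm38 and are all annotated as protein coding. Chdh is on chromosome 14 from 30009023 to 30040527, and Mat1a on the same chromosome from 41105035 to 41124412. Sardh (27188393 to 27248337) and Ahcy (155059310 to 155074497) are on chromosome 2, and Cbs (31608894 to 31637238) and Gnmt (46725664 to 46729168) are on chromosome 17. Bhmt, Bhmt2 and Dmgdh form a cluster on chromosome 13, within 136159 bases. Bhmt (93616675 to 93637961) and Bhmt2 (93655720 to 93674302) are on the minus strand, with 17758 bases between the start of Bhmt and the end of Bhmt2. Dmgdh (93674433 to 93752833) runs the other way, so that Bhmt2 and Dmgdh start head to head with 130 bases between them.

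This stretch between 2 members and the bases ahead of Gnmt, the member with the largest fold change, are shown in the 5′ to 3′ direction from the RefSeq GRCm38.p6 genome. The first is chr13:93674303-93674432 on the plus strand, intergenic, and reads from Bhmt2 towards Dmgdh. The second is chr17:46729166-46729415 on the minus strand, upstream of the RefSeq start of Gnmt. Capitals mark a CCAAT box on the opposite strand, and the first sequence has no capitals because none of the motifs searched was in it.
Bhmt2-Dmgdh: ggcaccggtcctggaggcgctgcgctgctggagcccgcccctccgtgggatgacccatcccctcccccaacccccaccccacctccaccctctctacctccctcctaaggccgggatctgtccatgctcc
Gnmt: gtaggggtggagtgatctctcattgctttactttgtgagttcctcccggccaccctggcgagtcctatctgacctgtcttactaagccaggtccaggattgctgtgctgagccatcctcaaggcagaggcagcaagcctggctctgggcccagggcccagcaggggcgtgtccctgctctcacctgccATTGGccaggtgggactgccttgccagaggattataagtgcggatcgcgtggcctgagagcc

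Windows from 250 bases before to 50 bases after a RefSeq start were found for 8 of the 10 genes, 10 windows in all, and not for Aldh7a1 and Mat1a. Both strands were searched for 5 motifs. CCAAT was found in 4 of the 10 windows, those of Ahcy, Bhmt, Cbs and Gnmt, and in 37.4% of 32851 windows of all genes. The E-box CACGTG was found in 1, that of Cbs, against 7.15% of all windows. TATAAA (13.6% of all windows), TTGCGCAA (0.183%) and CAAAGTCCA (0.475%) were in none of the 10. A match is a run of letters and not evidence of binding.

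Total counts per library were 13837445 to 19840917, and 13924 to 15248 genes had at least 1 count. LFG 3 stood apart from LFG 1 and 2: the summed level of 6 pericentral hepatocyte markers was 16859 CPM (counts per 1e6, scaled between libraries) against 1361 and 3308, that of 8 stellate cell and myofibroblast markers was 33.98 against 1219 and 742, and that of 8 macrophage markers was 145 against 1535 and 1172. For the 10 genes themselves the lowest library depended on the scale: on the CPM scale LFG 1 was the lowest of all 9 in 6 genes and LFG 3 in 2, and in FPKM each was the lowest in 4. In LFG 1 the summed level of 8 hepatocyte markers was the lowest, 86154 CPM, where the other LFG libraries had 138730 and 147810, REG had 163830 to 170260 and hADMSCs-Exo had 118020 to 136770. Most of each sum was Alb, at 64240 to 108370 CPM in LFG, 132070 to 139460 in REG and 90018 to 106970 in hADMSCs-Exo. None of the hepatocyte markers was at 0 in any library. Gene by gene the list was mixed: in REG against LFG 4 of the 8 were above 0 and 4 below, with a median log2 fold change of 0.01, and the lowest was Tat at -1.12. In bulk RNA fewer hepatocytes and less RNA of a gene per hepatocyte cannot be told apart, and the part of these differences in the results was not tested.

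CPM here means a count divided by its library's total and multiplied by 1e6, after scaling by TMM, which sets each library's total so that most genes do not differ. The TMM factors were 1.38, 1.09 and 0.808 for LFG 1 to 3 and 0.923 to 1.03 for the others. FPKM, which the authors also deposited, divides counts by gene length and by the plain library total. In REG against LFG the median log2 fold change of all tested genes was -0.07 with TMM and -0.27 with plain totals, and in hADMSCs-Exo against LFG it was -0.06 and -0.18. Directions that turn between the scales are given with the gene.

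Per length, the 10 genes covered a wide range in this liver. Together they took 0.956% ± 0.227 of the counts in LFG, 1.25% ± 0.0914 in REG and 1.32% ± 0.168 in hADMSCs-Exo (SD, n = 3 each). Mat1a, the liver form of the enzyme that makes S-adenosylmethionine, held rank 1 or 2 among them in every library, with FPKM means of 913 ± 408 in LFG, 1015 ± 46.2 in REG and 1363 ± 153 in hADMSCs-Exo. Gnmt lay between rank 1 and rank 4. Ahcy held rank 3 in all 9 libraries, and Bhmt held ranks 2 to 4. Sardh, Dmgdh, Bhmt2 and Aldh7a1 held ranks 5 to 8 in an order that differed between libraries, with group means of 84.8 to 157 FPKM. Cbs held rank 9 and Chdh rank 10 in every library, at 14.8 to 31.3 FPKM for Chdh. Among all genes of a library, Gnmt reached rank 31 and Mat1a rank 35 at best, whereas Chdh was between ranks 1283 and 2027.

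**Figure D1:**
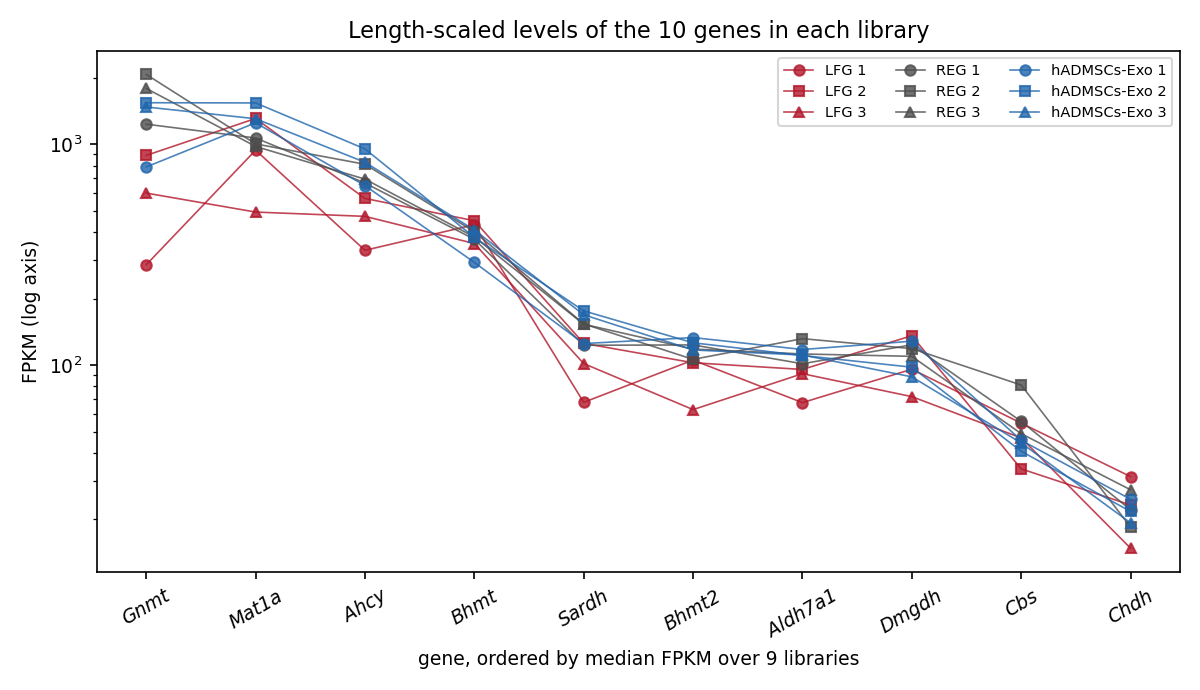
FPKM on a log axis for the 10 genes, ordered by their median over 9 libraries, with 1 line per library coloured by group (symbols are replicates 1 to 3). Within each library Cbs and Chdh held ranks 9 and 10, while the FPKM of Gnmt lay between 284 FPKM in LFG 1 and 2068 in REG 2.

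Counts of 2 of the genes are less certain than the rest. Of the 50-base words in the transcripts of Ahcy, 68.7% occur in another gene, mostly in Gm4737, an Ahcy-like gene that is also in the table. For Bhmt the share was 25.3%, mostly with Gm5096, which is in the table, and it was at most 4.99% for the other 8. Only 10 of these words, 0.174%, were shared by Bhmt and Bhmt2. The whole of Gnmt is overlapped on the opposite strand by the long noncoding RNA Gm26904, and 45329 bases of Sardh by Sardhos. Aldh7a1 is overlapped over 10509 bases by the protein-coding gene Phax, which is in the table, Dmgdh over 12994 bases by AW495222 and Bhmt over 3252 bases by Gm15622, and Chdh and Ahcy over shorter stretches. Since the use of strand is not given in the sources used here, reads of such partners cannot be separated.

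The first comparison, REG against LFG, asks how the livers differed after 4 weeks without CCl4. Every one of the 10 genes had a log2 fold change above 0, with a median of 0.56, and 44.1% of all tested genes did. Gnmt, which uses S-adenosylmethionine to methylate glycine, had the largest, 1.62, and Bhmt the smallest, 0.07. None of the 10 passed an adjusted p of 0.05 in edgeR's quasi-likelihood test, and none of 12517 tested genes did (percent called 0), the smallest adjusted p being 0.23, while DESeq2 called 240 genes and voom 1285. At an unadjusted p under 0.05, 2 of the 10 were higher in REG, Bhmt2 and Gnmt, and 0 were lower, against 4.62% and 6.7% of all genes in these directions. In 4 of the 10 (Ahcy, Bhmt2, Gnmt and Sardh) the REG libraries all lay above the LFG libraries, as in 8.91% of all genes (10% were lower without overlap). On plain totals 8 of the 10 remained above 0, and all 10 remained above the median of all genes. In the same comparison 8 of 8 stellate cell and myofibroblast markers were below 0, with a median of -0.58 and 0 at an unadjusted p under 0.05, and their part in these differences was not tested.

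Without LFG 3, 10.7% of 12948 tested genes were called (adjusted p under 0.05 and a log2 fold change of 1 or more in either direction), and 16.8% passed the adjusted p alone. Among the 10 genes 0 passed it. At an unadjusted p under 0.05 there were 6 that were higher (Ahcy, Aldh7a1, Bhmt2, Cbs, Gnmt and Sardh), against 18.2% of all genes (19.1% were lower), and in the same 6 the libraries did not overlap, against 25.8% (29.8% of all genes were lower without overlap). Genes with a log2 fold change above 0 were 49.8% of all, and all 10 of these. The median of the 10 was then 0.72, and that of all genes -0.01. Without LFG 1 it was 0.31, with 1 gene, higher in REG, at an unadjusted p under 0.05 against 3.34% of all genes higher and 5.62% lower, and the log2 fold changes of Sardh, Ahcy, Aldh7a1 and Dmgdh were 0.34, 0.48, 0.29 and 0.22. With all 6 libraries other tools gave single genes an adjusted p under 0.05. Limma with voom and quality weights gave 0.0339 for Gnmt and 0.0273 for Cbs. DESeq2 gave 0.0373 for Bhmt2, whose fold change was below the limit of a call. Of all genes, 42% had an unadjusted p under 0.05 with voom and 14% with DESeq2. In counts simulated from all 6 libraries, edgeR called 0% of genes changed by 1 on the log2 scale and 45% of those changed by 2. A call also needs an estimated fold change of 1 or more, so that limit alone misses some true changes of 1. With all 6 libraries 9 of the 10 genes had estimates under 1, and could not be called at any p.

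**Figure D2:**
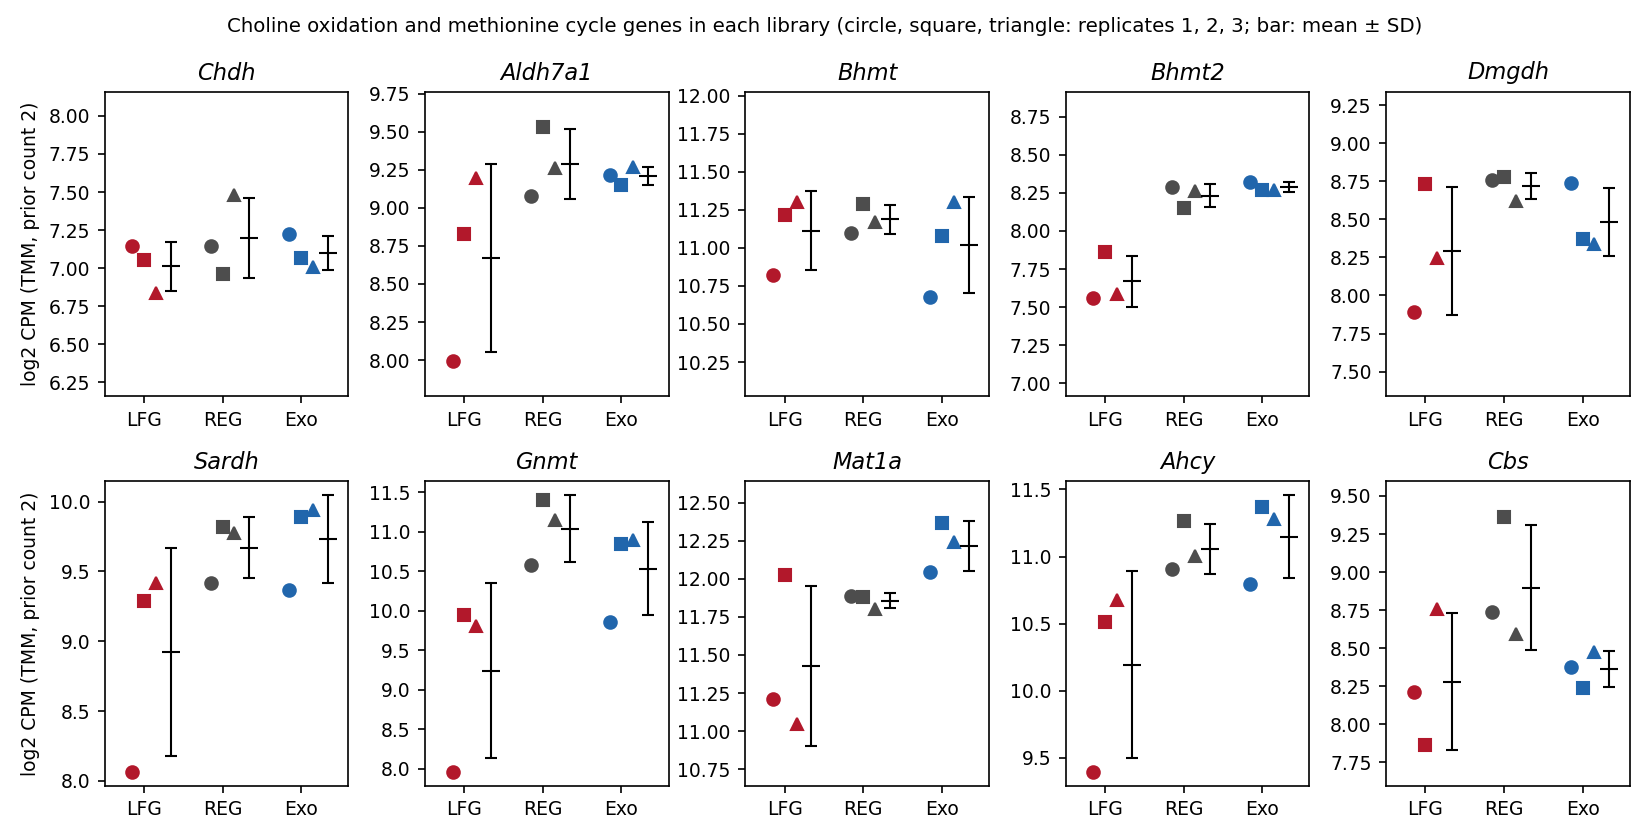
Log2 CPM of each gene in each library (LFG red, REG grey, hADMSCs-Exo blue; circle, square and triangle are replicates 1, 2 and 3), with the group mean ± SD as a black bar; each panel has its own axis. LFG 1, the red circle, is the lowest of all 9 libraries in 6 panels, and Bhmt2 separates LFG from the other groups with no overlap.

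Choline oxidation begins with Chdh, the choline dehydrogenase of the inner mitochondrial membrane. Its levels were 141, 133 and 114 CPM in LFG 1 to 3, 141, 125 and 178 in REG and 150, 134 and 128 in hADMSCs-Exo. The groups overlapped throughout, and the log2 fold change of REG against LFG was 0.21 ± 0.22 (standard error), turning to -0.03 on plain totals. Aldh7a1 is on chromosome 18 from 56509687 to 56572951. Its product, an aldehyde dehydrogenase that oxidizes betaine aldehyde and also serves lysine breakdown, had transcript levels of 255, 455 and 586 CPM in LFG, 539, 739 and 613 in REG and 594, 568 and 616 in hADMSCs-Exo. LFG 1 was far below the rest, while LFG 3 was level with the lower REG libraries. The log2 fold change was 0.55 ± 0.34 (adjusted p = 0.57), and 0.88 (adjusted p = 0.0789) without LFG 3.

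Betaine hands its methyl group to homocysteine through Bhmt, betaine-homocysteine S-methyltransferase, one of the most abundant of the enzymes here. Bhmt was at 1808, 2382 and 2529 CPM in LFG, 2193, 2505 and 2305 in REG and 1637, 2162 and 2520 in hADMSCs-Exo. The 3 groups covered the same range, and the log2 fold change of REG against LFG was 0.07 ± 0.27, turning to -0.10 on plain totals. Its neighbour Bhmt2, whose enzyme uses S-methylmethionine in place of betaine, behaved otherwise: it was at 189, 232 and 192 CPM in LFG, 312, 284 and 307 in REG and 320, 309 and 309 in hADMSCs-Exo. All 6 later libraries were above all LFG libraries, and the spread within REG and hADMSCs-Exo was small. The log2 fold change of REG against LFG was 0.57 ± 0.20 (95% interval 0.10 to 1.04, adjusted p = 0.39 by edgeR's quasi-likelihood test). Leaving out any 1 LFG or REG library kept it between 0.52 and 0.67. On plain totals it was 0.36. In FPKM the gap was narrow, the highest LFG library being at 105.3 and the lowest REG library at 106.1.

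The ratio of Bhmt to Bhmt2 within a library does not depend on library scaling. Per length, the log2 of this ratio was 2.04, 2.14 and 2.50 in LFG, 1.59, 1.92 and 1.69 in REG and 1.13, 1.59 and 1.81 in hADMSCs-Exo. Both later groups lay below LFG in every library. REG was lower than LFG by a difference of -0.49 and hADMSCs-Exo by -0.72, each with an exact two-sided permutation p of 0.1, the smallest that 3 against 3 libraries can give, before any adjustment over the 24 ratio tests made.

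Demethylation of dimethylglycine and then sarcosine follows, by the mitochondrial flavoenzymes Dmgdh and Sardh. Dmgdh was at 238, 426 and 304 CPM in LFG, 433, 439 and 394 in REG and 427, 331 and 323 in hADMSCs-Exo. LFG 2 lay within the REG range and the groups overlapped, with a log2 fold change of REG against LFG of 0.40 ± 0.27. Sardh was at 268, 626 and 683 CPM in LFG, 685, 904 and 876 in REG and 662, 948 and 982 in hADMSCs-Exo. REG was above LFG without overlap, though by a margin of a few CPM between REG 1 and LFG 3, and in FPKM the groups overlapped. The log2 fold change was 0.65 ± 0.38 (adjusted p = 0.55).

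Sarcosine is also made in the cytosol by Gnmt, glycine N-methyltransferase, which is regarded as a buffer of the S-adenosylmethionine supply. Gnmt was at 249.3, 986 and 896 CPM in LFG, 1524, 2703 and 2271 in REG and 927, 1843 and 1901 in hADMSCs-Exo. Every REG library was above every LFG library, on the FPKM scale too (284 to 889 against 1232 to 2068). The log2 fold change of 1.62 ± 0.54 (95% interval 0.34 to 2.89, adjusted p = 0.39) was at the 99.4th percentile of all tested genes. It was 1.86 (adjusted p = 0.0599) without LFG 3 and 1.21 (adjusted p = 0.41) without LFG 1.

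Methionine is activated by Mat1a, which was at 2367, 4166 and 2114 CPM in LFG, 3795, 3768 and 3567 in REG and 4222, 5288 and 4836 in hADMSCs-Exo. LFG 2 was above every REG library while LFG 1 and 3 were below them, and the log2 fold change of REG against LFG was 0.38 ± 0.34 (adjusted p = 0.69), with 0.23 without LFG 3 and 0.73 without LFG 2. Mat2a, the form of this enzyme found outside adult hepatocytes, was at 105.7 to 118 CPM in LFG and 69.2 to 98.6 in REG, with a log2 fold change of -0.34 ± 0.21 (adjusted p = 0.56). The ratio of Mat1a to Mat2a per length was 29.0, 50.6 and 23.2 in LFG and 46.8 to 70.5 in REG. It overlapped between the groups (log2 difference 0.80, exact permutation p = 0.2).

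The product of methyl transfer, S-adenosylhomocysteine, is split by Ahcy, and homocysteine is drawn off to cystathionine by Cbs. Ahcy was at 674, 1464 and 1635 CPM in LFG, 1919, 2465 and 2052 in REG and 1775, 2648 and 2485 in hADMSCs-Exo. The 6 later libraries were all above LFG, and the log2 fold change of REG against LFG was 0.78 ± 0.38 (adjusted p = 0.49), or 1.05 (adjusted p = 0.0805) without LFG 3. Cbs was at 297, 233 and 433 CPM in LFG, 427, 659 and 386 in REG and 333, 302 and 356 in hADMSCs-Exo. Here LFG 3 lay within the REG range, and the log2 fold change was 0.62 ± 0.33 (adjusted p = 0.52), or 0.93 (adjusted p = 0.0632) without LFG 3 and 0.38 (adjusted p = 0.94) without REG 2. Gnmt differed more than Ahcy between REG and LFG: their ratio per length was 0.860, 1.57 and 1.27 in LFG and 1.85, 2.55 and 2.57 in REG, without overlap (log2 difference 0.94, exact permutation p = 0.1).

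The second comparison, hADMSCs-Exo against REG, asks what differed between exosomes and saline at the same time after CCl4, and does not involve LFG. The 10 genes lay close together: 4 had a log2 fold change above 0 (Ahcy, Bhmt2, Mat1a and Sardh) and 6 below, with a median of -0.10 against 0.01 for all 12337 tested genes, of which 51.1% were above 0. None of the 10 was called by edgeR, DESeq2 or voom, and 0.00811% of all genes were called by edgeR. At an unadjusted p under 0.05 there was 1 lower gene, Cbs, against 4.69% of all genes, and 0 higher, against 5.34%. Mat1a was higher and Cbs lower in every hADMSCs-Exo library than in every REG library, as 8.07% and 7.47% of all genes were in each direction. In simulation, where recovery meant a call with its limit on fold change, this comparison recovered 17% of changes of 1 on the log2 scale. For changes of 2 it recovered 83%.

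Cbs was lower in hADMSCs-Exo, at 302 to 356 CPM against 386 to 659, with a log2 fold change of -0.57 ± 0.21 (95% interval -1.05 to -0.09, adjusted p = 0.45 by edgeR's quasi-likelihood test). Without REG 2, the highest library, it was -0.31 (adjusted p = 0.97). Mat1a was at 4222 to 5288 CPM against 3567 to 3795, with a log2 fold change of 0.36 ± 0.16 (95% interval -0.01 to 0.74, adjusted p = 0.50). Mat1a is the entry to S-adenosylmethionine and Cbs the exit from homocysteine. In the same comparison 6 of 6 pericentral hepatocyte markers were above 0, 4 of them at an unadjusted p under 0.05, and 8 of 8 stellate cell and myofibroblast markers were below 0, 6 of them at that p, and their part in these differences was not tested. Gnmt, with hADMSCs-Exo 1 below both REG and its own group, had -0.47 ± 0.31 (95% interval -1.18 to 0.24), and -0.21 without that library or -0.29 without REG 2. For the other 7 genes the values lay between -0.23 for Dmgdh and 0.10 for Ahcy, and the 95% intervals were within -0.59 and 0.56, so that a difference of 1 on the log2 scale lies outside them.

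Relative to Ahcy, both Gnmt and Cbs were lower in hADMSCs-Exo than in REG in every library. The ratio of Gnmt to Ahcy per length was 1.21, 1.62 and 1.78 in hADMSCs-Exo against 1.85 to 2.57 in REG (log2 difference -0.60). The log2 ratio of Cbs to Ahcy was -3.8303, -4.5464 and -4.2205 in hADMSCs-Exo against -3.5839, -3.3195 and -3.8271 in REG, a difference of -0.62, and hADMSCs-Exo 1 and REG 3 were almost level. Each had an exact permutation p of 0.1, the smallest possible here. Because the words of Ahcy are largely shared with Gm4737, ratios to Ahcy carry the uncertainty of its count.

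**Figure D3:**
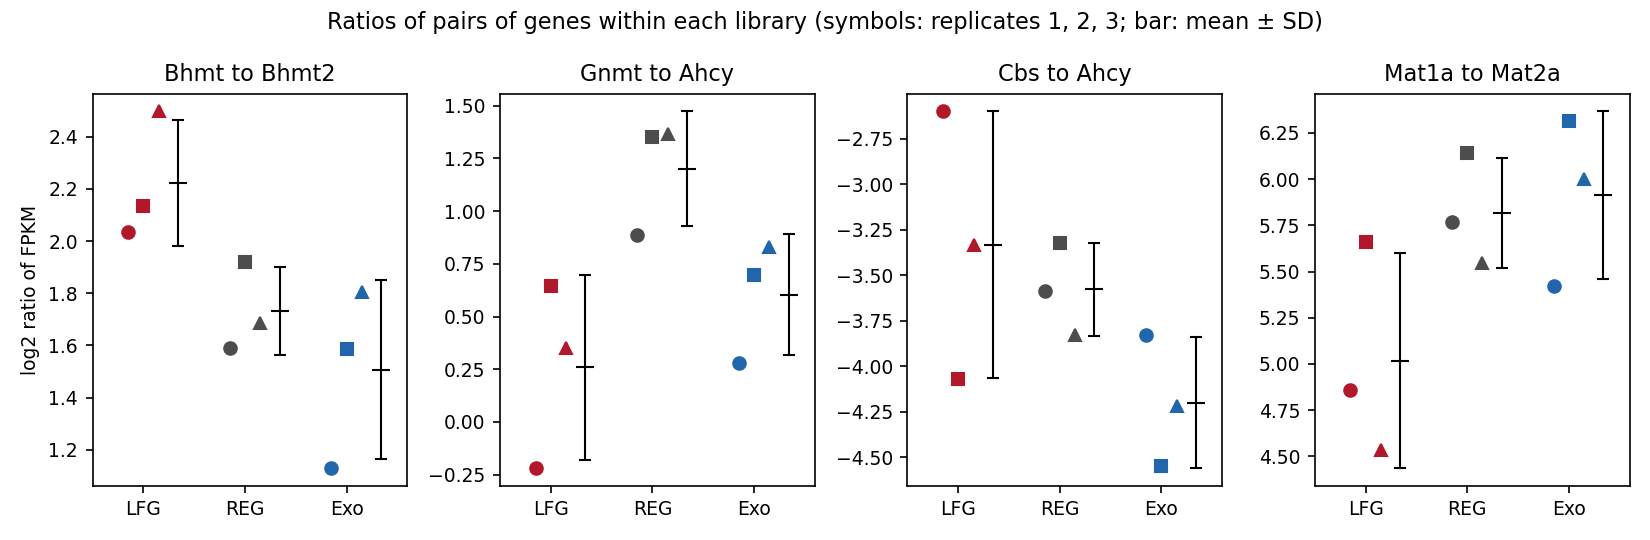
Log2 ratios of FPKM for 4 pairs of genes within each library (LFG red, REG grey, hADMSCs-Exo blue; circle, square and triangle are replicates 1 to 3; bars are mean ± SD). Bhmt to Bhmt2 is lower in both later groups than in LFG, and Gnmt to Ahcy is highest in REG, where the 3 libraries do not overlap with either other group.

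The third comparison, hADMSCs-Exo against LFG, shares its LFG libraries with the first and its hADMSCs-Exo libraries with the second, so its values are not separate evidence. Of the 10 genes 9 had a log2 fold change above 0, all but Bhmt, with a median of 0.53, against 43.1% of 12489 tested genes and a median of -0.06. None passed an adjusted p of 0.05 in edgeR, as for all genes (percent called 0), while DESeq2 called 60 genes and voom 1. Bhmt2 alone had an unadjusted p under 0.05, against 2.3% of all genes that were higher and 3.68% lower. DESeq2 gave Bhmt2 an adjusted p of 0.0404, and had 8.45% of all genes at an unadjusted p under 0.05. A fit with the replicate number as a block has a single ground: same-numbered libraries deviated together (r = 0.101, 0.308 and 0.180). In that fit 4 of the 10 were higher at an unadjusted p under 0.05, and 0 passed an adjusted one. Of all genes 2.75% were higher and 2.96% lower at that unadjusted p. Ahcy, Bhmt2 and Mat1a did not overlap between the groups, as 6.35% of all genes did not in this direction and 5.93% in the other. For Mat1a the gap was narrow, between LFG 2 at 4166 CPM and hADMSCs-Exo 1 at 4222, and in FPKM the groups overlapped. Without LFG 3 the count of unadjusted p-values was 4 (Ahcy, Aldh7a1, Bhmt2 and Sardh), against 12.8% of all genes (15.7% were lower), and 6 of the 10 did not overlap, against 23.2% (25.6% were lower without overlap). All 10 genes were then above 0, against 50.3%, and none was called, against 5.97% called and 7.09% at the adjusted p alone.

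Markers of other cell types also differed between hADMSCs-Exo and LFG. All 8 stellate cell and myofibroblast markers were below 0, with a median log2 fold change of -2.46, and 5 of them (Acta2, Col1a1, Col1a2, Col3a1 and Des) had an unadjusted p under 0.05. Their summed level was 33.98 to 1219 CPM in LFG and 43.2 to 113 in hADMSCs-Exo, LFG 3 lying below all hADMSCs-Exo libraries, and without LFG 3 all 8 had an unadjusted p under 0.05 and 6 an adjusted one in edgeR. The 3 tested of 4 neutrophil markers (Retnlg, S100a8 and S100a9) were above 0, each at an unadjusted p under 0.05, with a median of 1.82, and the summed level of the list was 7.06 to 11.4 CPM against 21.9 to 39.4. Of the 6 pericentral hepatocyte markers 5 were above 0 with 0 at an unadjusted p under 0.05, and without LFG 3 there were 5 at that p and 4 at an adjusted one, all higher. All 5 tested cholangiocyte markers and 6 of 8 macrophage markers were below 0, with 0 of either at an unadjusted p under 0.05. Without LFG 3 the markers below 0 were 5 and 7, with 4 and 5 at that p. The neutrophil marker Ly6g was at 0 in at least 1 LFG library and had at most 7 counts in hADMSCs-Exo. The part of these markers in the differences of the 10 genes was not tested.

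Bhmt2 had a log2 fold change of 0.60 ± 0.20 (95% interval 0.13 to 1.08, adjusted p = 0.81 by edgeR's quasi-likelihood test). Gnmt had 1.13 ± 0.56, with hADMSCs-Exo 1 at 927 CPM below LFG 2. Ahcy had 0.87 ± 0.40, Mat1a 0.72 ± 0.37 and Sardh 0.71 ± 0.40, each with an adjusted p of at least 0.805. Without LFG 1 the values were 0.72 for Gnmt, 0.57 for Ahcy and 0.40 for Sardh, and without LFG 2 Mat1a was at 1.09 (adjusted p of at least 0.99 for each). Cbs had 0.03 ± 0.28 (95% interval -0.62 to 0.69), and turned to -0.05 on plain totals, as Chdh did from 0.08 to -0.08.

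**Figure D4:**
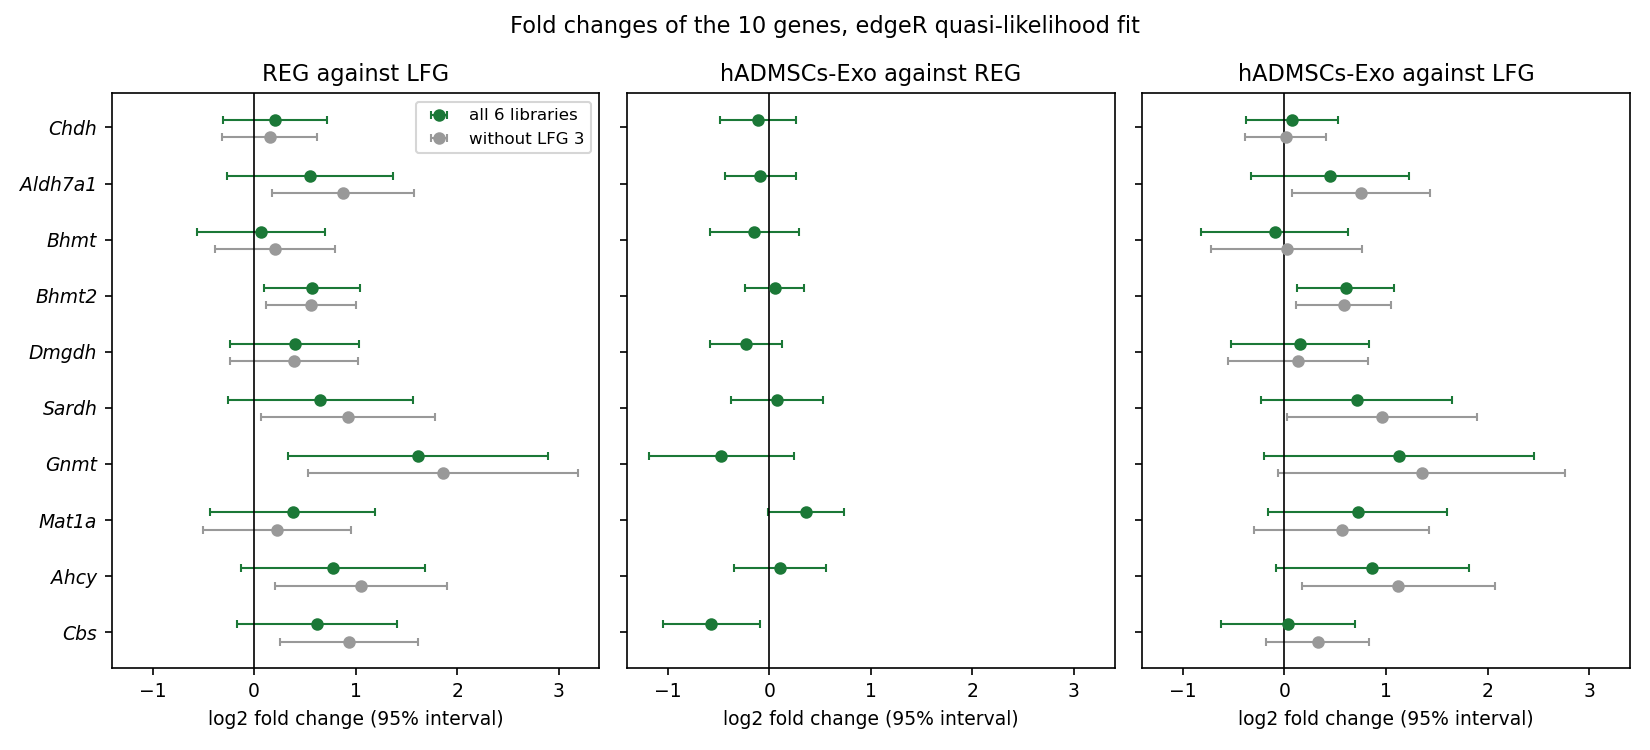
Log2 fold changes with 95% intervals of the 10 genes in the 3 comparisons, from edgeR's quasi-likelihood fit, with all 6 libraries (green) and without LFG 3 (grey). In REG against LFG all points are above 0 and Gnmt is farthest, at 1.62; in hADMSCs-Exo against REG the points lie between -0.57 and 0.36.

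Across the 9 libraries the 10 genes did not move as one. The log2 CPM of Ahcy and Sardh had a Pearson correlation of 0.99, Gnmt and Sardh of 0.95, Gnmt and Ahcy of 0.95, and Aldh7a1 and Sardh of 0.93. These points share library scaling and the low value of LFG 1. Chdh stood outside, with correlations from -0.44 with Bhmt to 0.43 with Bhmt2. Bhmt and Bhmt2, which adjoin, had -0.04, and Bhmt2 and Dmgdh, which start 130 bases apart, had 0.64. The genes most like Gnmt of 12760 were Pccb (0.99), a subunit of propionyl-CoA carboxylase, Msmo1 (0.98), a sterol oxidase of cholesterol synthesis, and Sfxn5 (0.98), a mitochondrial carrier. For Bhmt they included Akr1c20 (0.95) and Tmem50a (0.91), and for Chdh they were Erlin2 (0.88), Ints4 (0.86) and Usp16 (0.86).

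The wider pathway was represented by 50 further genes in 7 lists, of which 49 were tested with all libraries. In REG against LFG 30 had a log2 fold change above 0 and 19 below, with a median of 0.15, where 44.1% of all genes were above 0. Without LFG 3, 33 of 50 were above 0 and the median was 0.37, where 49.8% of all genes were above 0. At an unadjusted p under 0.05 there were 3 higher (Aldh1l1, Shmt1 and As3mt) and 4 lower (Gclc, Gss, Mthfd2 and Etfb), against 4.62% and 6.7% of all genes, and none passed an adjusted p of 0.05 in edgeR. Other methyltransferases that use S-adenosylmethionine had a median of 0.56, or 0.92 without LFG 3, with 7 of 8 above 0 in both, among them Pemt, which makes phosphatidylcholine, at 0.58 ± 0.43. Partners of the cycle had a median of -0.19, with 7 of 9 below 0, among them Mtr, the folate-dependent methionine synthase, at -0.29 ± 0.25. Bhmt exceeded Mtr 202- to 481-fold per length over the 9 libraries. Cth, the enzyme after Cbs, had 0.06 ± 0.32.

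In the list from cystathionine to cysteine, taurine and glutathione 4 of 7 genes were above 0 and the median was 0.06, or 5 of 7 and 0.37 without LFG 3. Gclc, the catalytic subunit of the first step of glutathione synthesis, had a log2 fold change of -1.21 ± 0.22 (adjusted p = 0.26) and Gss, which completes it, -0.79 ± 0.30, the latter being -0.38 without LFG 3. In the folate list Mthfd2, a mitochondrial dehydrogenase of proliferating cells, had -1.55 ± 0.48, whereas Aldh1l1, which oxidizes formyl-folate in liver, had 0.98 ± 0.40 and Shmt1, the cytosolic serine hydroxymethyltransferase, 0.70 ± 0.22. Etfb, a subunit of the flavoprotein that takes electrons from Dmgdh and Sardh, had -1.64 ± 0.65, and -0.66 without LFG 3. Mthfd2 and Etfb had only 18 to 29 and 18 to 30 counts in the REG libraries, so counting error matters for both. Etfb had a mean FPKM of 1.02 in REG, where the gene of its partner subunit had 185, and the cause of this gap was not tested.

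Without LFG 3, 17 of the 50 genes passed an adjusted p of 0.05 in edgeR's quasi-likelihood test, 13 higher and 4 lower in REG, as 16.8% of all genes did, while 0 of the 10 did. Of the methyltransferases 4 of 8 rose, among them Inmt by 2.06, Gamt, the last enzyme of creatine synthesis, by 1.48 and Pemt by 1.17. Gclc (-1.28), Mthfd2 (-1.80) and Gldc (-1.04), the glycine decarboxylase, fell. Slc6a12 (1.02), a carrier of betaine, rose. In the same libraries 6 of 8 stellate cell and myofibroblast markers were lower and 4 of 6 pericentral hepatocyte markers were higher at an adjusted p under 0.05. At that p 3 of 5 tested cholangiocyte markers and 1 of 8 macrophage markers were lower. The part of these markers in the differences was not tested.

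In hADMSCs-Exo against REG 5 of the 49 had an unadjusted p under 0.05, 3 higher and 2 lower, against 5.34% and 4.69% of all genes, a like share. Among them Gclc had 0.71 ± 0.22 and Etfb, at low counts, 0.90 ± 0.32. Slc25a26, the mitochondrial carrier of S-adenosylmethionine, had 0.56 ± 0.24, while Amt, of the glycine cleavage system, had -0.53 ± 0.15. None of the 49 passed an adjusted p of 0.05. In hADMSCs-Exo against LFG there were 2 of 49, both higher, against 2.3% of all genes: As3mt (0.64 ± 0.19) and Slc25a48 (0.96 ± 0.21), a mitochondrial choline carrier, which also missed it. The median of the 49 was 0.0043. Without LFG 3 it was 0.31 over 50 genes, with 16 higher and 7 lower at an unadjusted p under 0.05, against 12.8% and 15.7% of all genes, and 3 passed an adjusted p of 0.05 in edgeR, Slc25a48 (0.92) and Slc6a12 (1.02) higher and Aldh1l2 (-2.93), a mitochondrial formyl-folate dehydrogenase, lower, against 7.09% of all genes.

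**Figure D5:**
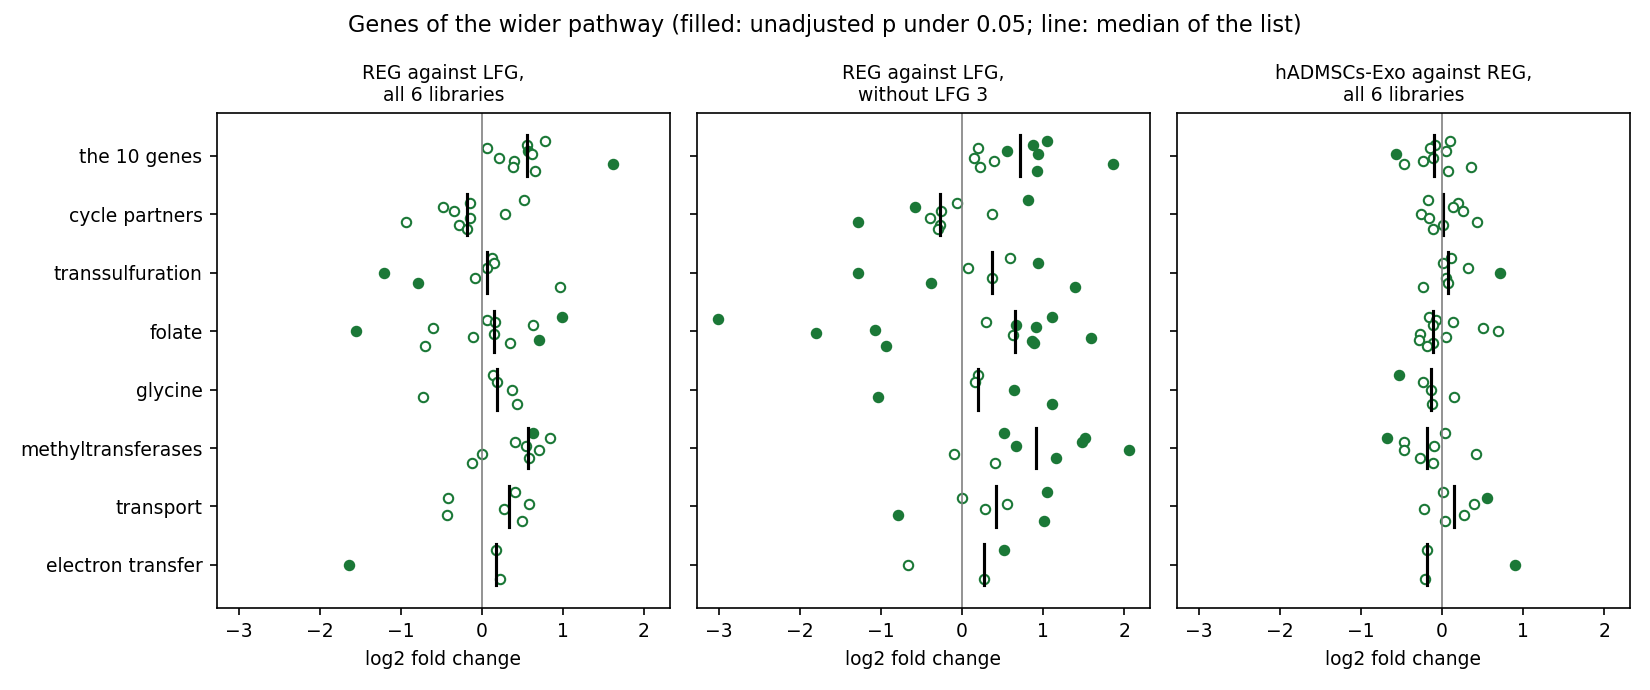
Log2 fold changes of the 10 genes and of the 7 lists of the wider pathway (1 point per gene, filled at an unadjusted p under 0.05, with a line at the median of each list). In REG against LFG the 10 genes and the methyltransferases have the highest medians, 0.56 each with all libraries, and in hADMSCs-Exo against REG the medians lie near 0.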

How the data were processed

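Liver RNA of 9 libraries was analysed. The authors deposited raw counts per gene, without normalization, with FPKM of the same genes; dividing the counts by gene length and library total gave the deposited FPKM within 9.19e-07 of its value. The submitters' processing notes name cutadapt 1.15, HISAT2 2.0.5, HTSeq 0.9.1, DESeq 1.30.0 and the build GRCm38, and the use of strand is not given in the sources used here. Columns were matched to samples by their names, those of the hADMSCs-Exo group bearing a shortened one.

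For each pair of groups, the 6 libraries were normalized by TMM, filtered for low counts and compared by the two-sided quasi-likelihood test of edgeR 4.0.16 (R 4.3.3). Adjustment (Benjamini-Hochberg) was over all tested genes, and called genes needed an adjusted p under 0.05 and a log2 fold change of 1 or more in size. The prior count for log2 CPM was 2. Before use this procedure was tested on simulated data holding 200 changed genes. Ratios were compared by exact permutation with scipy 1.17.1 (Python 3.11.15, pandas 2.3.3, matplotlib 3.10.9), and alternatives used DESeq2 1.42.0 and limma 3.58.1. Depth was 13837445 to 19840917 counts per library, and the 10 genes had at least 1275 counts in every library, where the spread between libraries and not counting error sets the precision; for wider-list genes with few counts counting error matters as well.

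The 10 genes, the lists and the tests were chosen with earlier results of these data known. All 10 were named, with any gene of the wider lists at an unadjusted p under 0.05 in a fit with all libraries, Mat2a, Mtr, Cth and Pemt, and the 3 genes most correlated with Chdh, Bhmt and Gnmt; genes named without LFG 3 were singled out after their values were seen. The results of some genes under this rule are not reported here. Same-numbered libraries of hADMSCs-Exo and LFG deviated together (r = 0.101, 0.308 and 0.180), all over 0.1, which is the only ground for pairing them.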

Additional observations from a re-analysis of the deposited data

How the results depend on the processing

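Bhmt2 and Mat1a kept their direction and stayed below the threshold of a call in all 42 alternatives each, and Gnmt kept its direction in 42. Genes called in REG against LFG numbered 240 with DESeq2, 1285 with voom, 537 at an unadjusted p, and 0 to 1391 with 1 library left out. In hADMSCs-Exo against REG they were 67, 3 and 266, with 4 without a filter, 0 in one fit of all libraries and 0 as the lowest with 1 library left out, against 1 in edgeR. In hADMSCs-Exo against LFG they were 60, 1 and 374, with 1 in one fit and 0 to 773 with 1 library left out. Members of the 10 at an unadjusted p under 0.05 were, in REG against LFG, 6 with voom (42% of all genes) and 0 to 6 with 1 library left out (6 without LFG 3, with 37.3% of all genes, and 0 without REG 2, with 4.51%). In hADMSCs-Exo against REG they were 2 with DESeq2 (9.7% of all genes), voom (13.6%) and plain library totals (10.2%), 0 in one fit (3.79%) and 0 to 3 with 1 library left out (3 without hADMSCs-Exo 1, with 10.1%, and 0 without REG 2 or hADMSCs-Exo 2, with 4.92% and 8.59%). In hADMSCs-Exo against LFG they were 4 with DESeq2 (8.45% of all genes), 2 with voom (28.1%) and plain totals (5.39%), 3 in one fit (9.74%) and 0 to 4 with 1 library left out (4 without LFG 3, with 28.5%, and 0 without any 1 hADMSCs-Exo library, with 2.91% to 3.74%).

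With the replicate number as a block these counts were 1, 2 and 4 in the 3 comparisons, against 8.61%, 9.52% and 5.72% of all genes. The block called no gene of the 10. In every comparison the replicate numbers are shared only as numbers. Same-numbered libraries had r = 0.415, -0.202 and 0.305 for REG and LFG, and 0.159, 0.00939 and 0.0336 for hADMSCs-Exo and REG. The median of the 10 was 0.31 to 0.72 in REG against LFG, -0.16 to -0.03 in hADMSCs-Exo against REG and 0.29 to 0.60 in hADMSCs-Exo against LFG with 1 library left out. Voom called Gnmt (1.64) and Cbs (1.07) in REG against LFG, where it had 42% of all genes at an unadjusted p under 0.05.

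Directions turned for genes with fold changes near 0. Plain library totals, added after the data were seen, gave Chdh -0.033 and Bhmt -0.10 in REG against LFG, and Chdh -0.078 and Cbs -0.050 in hADMSCs-Exo against LFG, where voom gave Dmgdh -0.10. With 1 library left out, Bhmt was -0.062 to 0.20 in REG against LFG. In hADMSCs-Exo against REG, Sardh was -0.031 to 0.23, Aldh7a1 -0.18 to 0.029, Chdh -0.23 to 0.042, Bhmt -0.30 to 0.0020 and Ahcy -0.0098 to 0.26. In hADMSCs-Exo against LFG, Dmgdh was -0.022 to 0.41, Cbs -0.15 to 0.33 and Bhmt -0.24 to 0.080. Other than plain totals, whose construction differs by the TMM factors, the cause was not tested.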
